A study of Mus musculus with 6 samples.

Results

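Transcripts of 9 complement genes were measured in CT26 tumors of mice that received the kinase inhibitor H89 or NaCl. The genes were taken by name from the table of 23557 genes, and were chosen with earlier results of these data known. They were C1ra, C1s1, C2 and C4b of the classical and lectin pathways, the inhibitor Serping1, C3 and Cfb of the alternative pathway, and the anaphylatoxin receptors C3ar1 and C5ar1. All 9 passed the filter on low values that left 13118 genes to test. CT26 cells are a mouse colon carcinoma line from BALB/c mice, and H89 is an inhibitor best known for its action on protein kinase A that also inhibits other kinases. Female BALB/c mice, 7 weeks old when purchased, received 500000 CT26 cells under the skin, and treatment by intraperitoneal injection 2 times a week began after 6 days. The H89 group received 10 mg/kg in NaCl and the NaCl group received NaCl alone, with 3 tumors in each group, taken 14 days after the cells. Each tumor is a single sequenced sample of whole tissue, from 1 mouse, so its RNA comes from the injected line together with the host cells that had entered the tumor.

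Complement is a cascade of serum proteins in which each protease activates the next. In the classical pathway, C1q bound to antibody or to a surface activates the proteases C1r and C1s, which cut C4 and C2 to build a convertase that cuts C3, while the alternative pathway builds its own convertase from C3 and factor B. The liver makes most of the circulating proteins, but macrophages, fibroblasts and tumor cells make several of them locally, and interferon gamma is a known inducer of C1r, C1s, C2, C4, factor B and C1 inhibitor.

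By edgeR's quasi-likelihood test, C2 alone of the 9 genes rose past a Benjamini-Hochberg adjusted p of 0.05 over all tested genes, at 2.54 times its NaCl level, where 0.861% of all tested genes rose by this test, and its transcript was the least abundant of the 9. The other classical genes and Cfb had H89 means 1.77 to 2.27 times the NaCl means and unadjusted p under 0.05, with C1s1 overlapping at a single point. C3 and Serping1 also overlapped between the groups. The receptors stood apart from each other, with C3ar1 slightly higher and C5ar1 lower in all 3 H89 tumors. The 6 libraries held 27067349 to 31958793 estimated counts, 1 count was worth at most 0.037 CPM, and levels are given as CPM, the counts per 1000000 of the library size after TMM normalization, whose factors ran from 0.956 to 1.063. No label says whether litters, cages or extraction days were shared within a group. An effect of such sharing could not be told apart from that of treatment. The p-values set the difference between the groups against the spread between tumors of the same group.

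The sequences upstream of 4 of the genes are shown because they let the members be compared on a feature that the expression values do not contain. RefSeq promoter windows on GRCm38.p6, each 300 bases long and reaching past an annotated start, were matched for 5 of the 9 genes, C1ra, C1s1, C3, C3ar1 and C5ar1. Each was searched on both strands for the gamma-activated site TTCNNNGAA, the interferon-stimulated element GAAANNGAA, the cAMP response element TGACGTCA, the NF-kappaB letters GGANTTTCC and the C/EBP letters TTGCNNAA. The sequences below run 5′ to 3′ towards the start, and capitals mark a match to one of these strings.
C1s1, chr6:124542360-124542609, minus strand: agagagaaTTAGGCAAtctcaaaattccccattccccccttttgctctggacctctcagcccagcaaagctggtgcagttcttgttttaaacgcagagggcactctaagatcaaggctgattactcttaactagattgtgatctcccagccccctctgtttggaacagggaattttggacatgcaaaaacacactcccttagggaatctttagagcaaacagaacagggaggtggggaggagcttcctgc
C3, chr17:57228137-57228286, minus strand: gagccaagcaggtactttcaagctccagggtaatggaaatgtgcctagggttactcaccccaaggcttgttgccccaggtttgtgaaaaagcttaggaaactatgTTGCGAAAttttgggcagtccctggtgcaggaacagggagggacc
C3ar1, chr6:122856158-122856307, minus strand: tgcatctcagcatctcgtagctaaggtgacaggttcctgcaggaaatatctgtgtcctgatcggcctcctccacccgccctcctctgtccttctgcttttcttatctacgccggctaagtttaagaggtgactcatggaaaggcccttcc
C5ar1, chr7:16259339-16259488, minus strand: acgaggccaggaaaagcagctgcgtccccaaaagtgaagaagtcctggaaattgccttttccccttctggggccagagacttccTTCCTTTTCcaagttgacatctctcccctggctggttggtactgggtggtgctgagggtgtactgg
The capitals in C1s1 and C3 are C/EBP letters, beginning at bases -242 and -45 from the start, on the other strand in C1s1 and on the strand shown in C3. Those in C5ar1 are interferon-stimulated element letters on the other strand, beginning at base -66. The C5ar1 stretch lies before the RefSeq start but inside an intron of 2 longer GENCODE transcripts of the same gene. The C1ra window holds a gamma-activated site, TTCCCTGAA, from base 33 after its start. It also holds C/EBP letters on the other strand, TTATGCAA, from base 17, and both lie in its first exon. The C3ar1 window holds no match. A second C1s1 window, for a start slightly further downstream, holds none either. No window of these 5 genes holds the cAMP response element or the NF-kappaB letters. Of all 32851 promoter windows, 8.3% hold the gamma-activated site, 8.56% the interferon-stimulated element, 1.79% the cAMP response element, 1.25% the NF-kappaB letters and 10.8% the C/EBP letters, so single matches among 5 genes are a description of these windows only.

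The classical pathway genes came first. C1ra encodes the C1r protease, the first enzyme of the C1 complex, and lies on chromosome 6 at 124512405 to 124523443 (GRCm38, GENCODE M21). Its level was 109, 93.1 and 69.2 CPM in NaCl tumors 1 to 3 and 166, 114 and 201 CPM in H89 tumors 1 to 3. All 3 H89 tumors stood above all 3 NaCl tumors, although H89 tumor 2 exceeded NaCl tumor 1 by little. The means were 90.5 ± 20.2 CPM (SD, n = 3) and 161 ± 43.9 CPM (SD, n = 3). The log2 fold change of C1ra was 0.83 (SE 0.23, 95% interval 0.30 to 1.35), with an unadjusted p of 0.00697 and an adjusted p of 0.0905 by edgeR's quasi-likelihood test and of 0.0046 by DESeq2.

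C1s1 encodes C1s, the protease that C1r activates and that cuts C4 and C2, and it lies near C1ra at 124530345 to 124542359 on chromosome 6. Its level was 118, 71.2 and 55.8 CPM in the NaCl tumors and 186, 113 and 257 CPM in the H89 tumors. The groups overlapped at a single point, H89 tumor 2 lying just below NaCl tumor 1, and on CPM of the deposited totals, without TMM, they did not overlap. For C1s1 the log2 fold change was 1.18 (SE 0.34, 95% interval 0.39 to 1.98), with an unadjusted p of 0.00898 and an adjusted p of 0.0997 by edgeR. C1ra and C1s1 stood in the same order across the 6 tumors but for NaCl tumor 1 and H89 tumor 2, and C1s1 was 76.4% to 128% of the C1ra count.

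C2 encodes the protease component that C1s cuts and that becomes the enzyme of the classical C3 convertase, and it lies on chromosome 17 at 34862604 to 34898265. The estimated counts of C2 were 61, 43 and 48 in the NaCl tumors and 169, 119 and 147 in the H89 tumors. These equal 2.19, 1.61 and 1.76 CPM against 6.04, 3.61 and 4.48 CPM, so that the lowest H89 tumor was above the highest NaCl tumor by more than the whole NaCl range. The mean of C2 rose from 1.85 ± 0.302 CPM (SD, n = 3) in NaCl to 4.71 ± 1.23 CPM (SD, n = 3) in H89 tumors, which is 1.34 on the log2 scale (SE 0.25, 95% interval 0.76 to 1.93) with an adjusted p of 0.0492 by edgeR and of 0.000541 by DESeq2. The edgeR call is at the edge of the threshold, since the adjusted p of C2 was 0.0743 to 0.152 when any 1 of the 6 tumors was left out, with a lowest log2 fold change of 1.13.

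C4b encodes complement C4, whose cut fragment attaches the convertase to a surface, and it lies on chromosome 17 at 34728380 to 34743882. Its level was 67.7, 80.5 and 55 CPM in the NaCl tumors and 104, 87.3 and 208 CPM in the H89 tumors. The groups did not overlap, but H89 tumor 3 held about as much C4b as the other 2 H89 tumors together. For C4b the log2 fold change was 0.98 (SE 0.31, 95% interval 0.26 to 1.70), with an unadjusted p of 0.0142 and an adjusted p of 0.116 by edgeR. Without H89 tumor 3, the log2 fold change of C4b was 0.50.

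**Figure D1:**
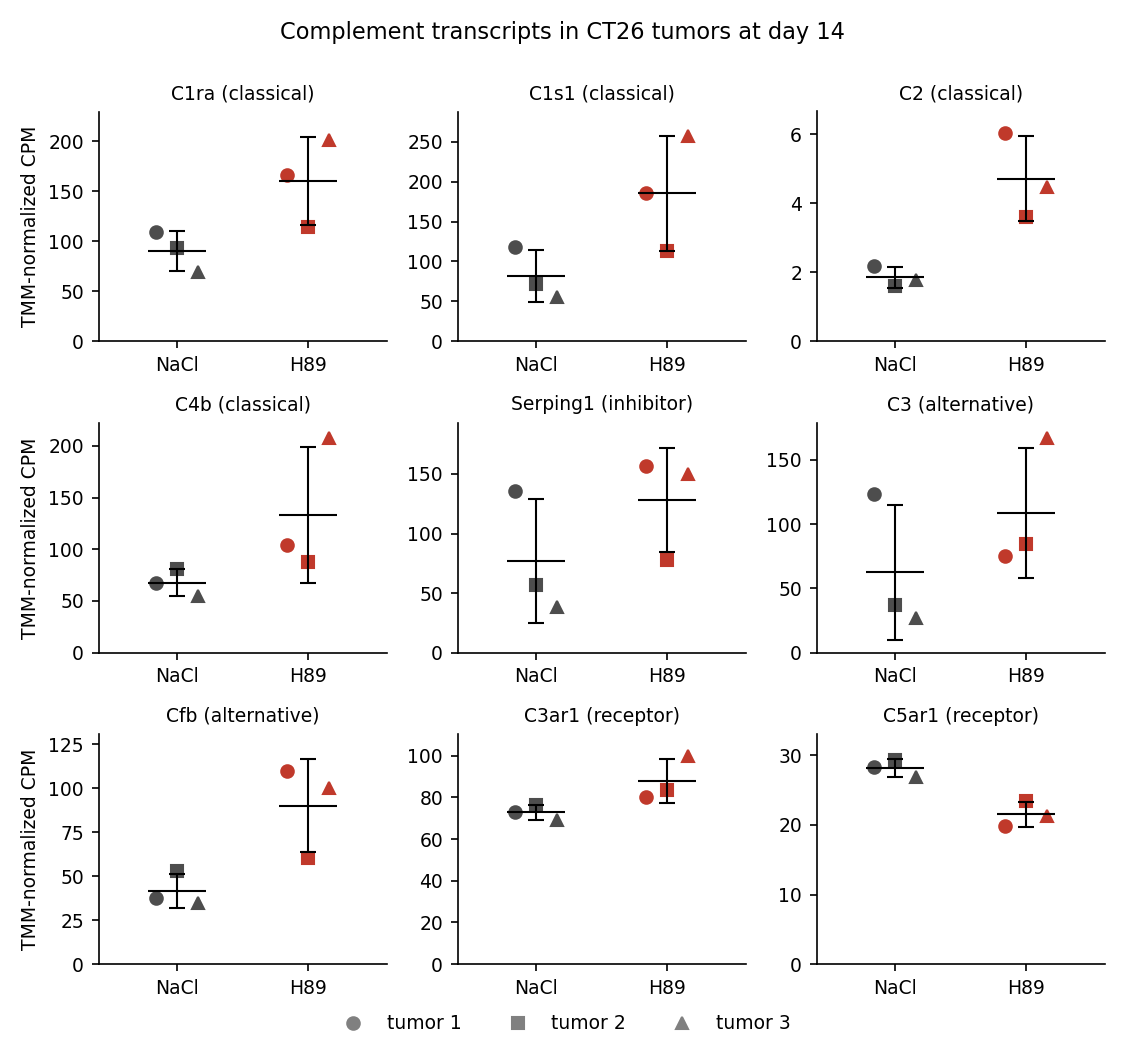
Level of each complement gene (vertical axes, TMM-normalized CPM, starting at 0) in NaCl and H89 tumors, with a symbol for each tumor and the mean and SD of each group as bars. C2 lies at 1.61 to 2.19 CPM in NaCl and 3.61 to 6.04 CPM in H89 tumors. C1s1, C3 and Serping1 overlap through NaCl tumor 1, and C5ar1 is the gene with all H89 tumors below all NaCl tumors.

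The summed level of the 4 classical genes was 297, 246 and 182 CPM in the NaCl tumors and 462, 318 and 671 CPM in the H89 tumors, without overlap, and the median of their log2 fold changes was 1.08. The chains of C1q, which sense the target and start this pathway, were different in level and pattern. C1qa, C1qb and C1qc, not among the 9 genes, summed to 803, 1380 and 1140 CPM in the NaCl tumors and 1180, 989 and 1270 CPM in the H89 tumors, with a log2 ratio of means of 0.05 (exact two-sided permutation p = 0.8). Within a tumor, the log2 ratio of C1ra to the summed C1q chains was -2.88, -3.89 and -4.04 in NaCl and -2.82, -3.12 and -2.66 in H89 tumors. NaCl tumor 1 fell among the H89 tumors in this ratio, and the difference of 0.74 had an exact permutation p of 0.2 (0.333 adjusted over the 5 ratios compared within tumors), where 3 against 3 tumors can reach no less than 0.1.

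Serping1 encodes C1 inhibitor, the serpin that inactivates C1r and C1s, and lies on chromosome 2 at 84765387 to 84775444. Its level was 136, 57.2 and 38.2 CPM in the NaCl tumors and 157, 77.5 and 150 CPM in the H89 tumors. NaCl tumor 1 stood above H89 tumor 2, and the NaCl values alone spanned 3.56-fold. Serping1 had a log2 fold change of 0.73 (SE 0.46, 95% interval -0.32 to 1.79), with an adjusted p of 0.352 by edgeR. It was 1.42 without NaCl tumor 1, with an unadjusted p of 0.00381 and an adjusted p of 0.107, and 0.41 without NaCl tumor 3. Relative to C1ra in the same tumor, the log2 ratio of Serping1 was -0.41 ± 0.64 in NaCl and -0.36 ± 0.25 in H89 tumors (SD, n = 3 each; exact permutation p = 0.9).

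The alternative pathway genes follow. Cfb encodes factor B, the protease of the alternative C3 convertase and the closest relative of C2, which it adjoins on chromosome 17 at 34856374 to 34862518. Its level was 37.5, 52.7 and 34.6 CPM in the NaCl tumors and 110, 60.2 and 100 CPM in the H89 tumors. All 3 H89 tumors were above the NaCl tumors, H89 tumor 2 by the least. The log2 fold change of Cfb was 1.11 (SE 0.24, 95% interval 0.55 to 1.68), with an unadjusted p of 0.00182 and an adjusted p of 0.0627 by edgeR, which was 0.0448 without the filter on low values and 0.00011 by DESeq2. C2 and Cfb had their highest value in the same tumor, H89 tumor 1, and C2 was 3.06% to 6.01% of the Cfb count.

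C3 encodes the central component that both convertases cut into C3a and C3b, and lies on chromosome 17 at 57203970 to 57228136. Its level was 123, 37.2 and 27.1 CPM in the NaCl tumors and 75.3, 84.2 and 167 CPM in the H89 tumors. NaCl tumor 1 was above H89 tumors 1 and 2, and the level spanned 6.14-fold over the 6 tumors, the widest span of the 9 genes. C3 had a log2 fold change of 0.80 (SE 0.56, 95% interval -0.49 to 2.09), with an adjusted p of 0.406 by edgeR. It was 1.76 without NaCl tumor 1 (unadjusted p 0.00219, adjusted p 0.103), 0.44 without NaCl tumor 3 and 0.35 without H89 tumor 3. The log2 ratio of Cfb to C3 was -1.72 in NaCl tumor 1 and 0.50 and 0.35 in the other NaCl tumors, so the proportion of the 2 alternative pathway transcripts in NaCl tumors was set by this tumor, and it was 0.54, -0.48 and -0.73 in H89 tumors 1 to 3 (exact permutation p = 0.9).

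The receptors are made by myeloid cells and bind the small fragments released by the cascade. C3ar1 encodes the receptor of C3a and lies on chromosome 6 at 122847138 to 122856161. Its level was 73, 76.5 and 69.1 CPM in the NaCl tumors and 80.2, 83.8 and 99.9 CPM in the H89 tumors. The H89 tumors were all higher, with a small difference next to that of the proteases. C3ar1 had a log2 fold change of 0.27 (SE 0.10, 95% interval 0.04 to 0.51), with an unadjusted p of 0.029 and an adjusted p of 0.158 by edgeR, and it was 0.17 without H89 tumor 3.

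C5ar1 encodes the receptor of C5a, a strong attractant of neutrophils and macrophages, and lies on chromosome 7 at 16246743 to 16259540. Its level was 28.3, 29.4 and 26.9 CPM in the NaCl tumors and 19.9, 23.4 and 21.3 CPM in the H89 tumors. It was the one member with all H89 tumors below all NaCl tumors, and its values were tight in both groups, at 28.2 ± 1.26 and 21.5 ± 1.77 CPM (SD, n = 3 each). The log2 fold change of C5ar1 was -0.39 (SE 0.10, 95% interval -0.62 to -0.16), with an unadjusted p of 0.00469 and an adjusted p of 0.0822 by edgeR and of 0.0223 by DESeq2.

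The ratio of the receptors, which does not depend on how libraries are scaled against each other, was compared after the values had been seen. The log2 ratio of C3ar1 to C5ar1 was 1.37, 1.38 and 1.36 in the NaCl tumors and 2.01, 1.84 and 2.23 in the H89 tumors. The NaCl tumors lay within 0.02 of each other and the H89 tumors were all higher, by 0.66 on average (exact permutation p = 0.1, the smallest possible, and 0.333 after Benjamini-Hochberg adjustment over 5 such ratios). The summed level of both receptors was 101, 106 and 96 CPM in NaCl and 100, 107 and 121 CPM in H89 tumors, a log2 ratio of means of 0.11 with overlap.

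**Figure D2:**
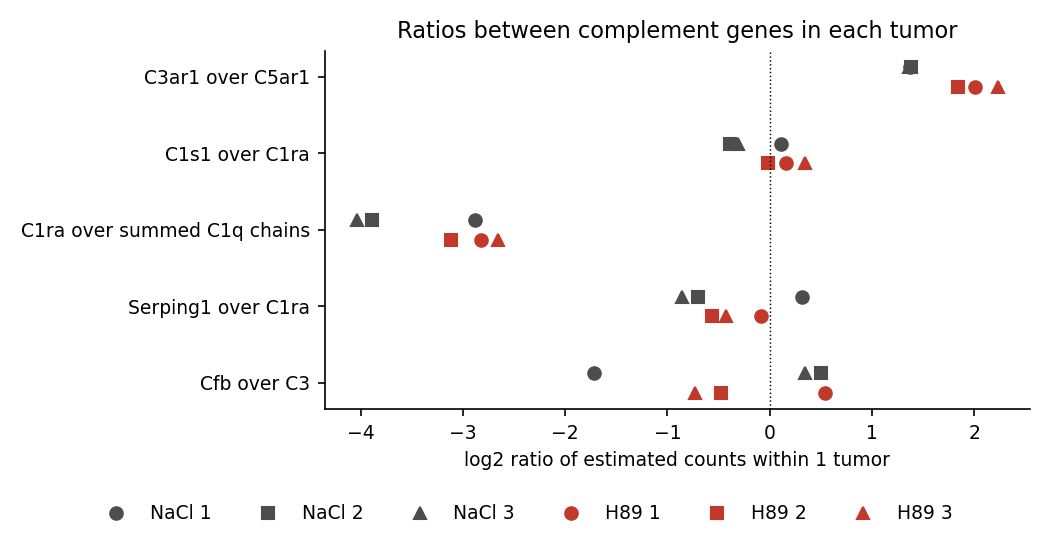
Log2 ratio of the estimated counts of 2 complement genes, or of C1ra and the summed C1q chains, within each tumor (horizontal axis), with grey NaCl and red H89 symbols on a row for each ratio. The 3 NaCl tumors coincide at 1.36 to 1.38 for C3ar1 over C5ar1 and the H89 tumors lie at 1.84 to 2.23, while the other 4 ratios overlap between groups.

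Counted together, edgeR called 1 of the 9 genes higher in H89 at an adjusted p under 0.05, beside 0.861% of all tested genes, and 0 lower, beside 0.724%. DESeq2 called 3 higher (C2, Cfb and C1ra), beside 4.75% of the genes to which it gave an adjusted p, and 1 lower (C5ar1), beside 5.68%. At an unadjusted p under 0.05, 6 were higher, beside 13.1% of all tested genes, and 1 was lower, beside 11.9%. The groups did not overlap for 5 genes that were higher in H89, beside 15.2% of tested genes, and for 1 that was lower, beside 15.5%. On CPM of the deposited totals, the shares over all genes were 20.5% and 10%, and C1s1 joined the genes without overlap. The median log2 fold change was 0.83 for the 9 genes and 0.004 for all tested genes, and by arm it was 1.08 for the classical, 0.96 for the alternative and -0.06 for the receptor genes. NaCl tumor 3 was the lowest of the 6 tumors for 7 of the 9 genes, and H89 tumor 3 was the highest for 5 and H89 tumor 1 for 3.

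Levels of different genes can be compared only per length, here as mean CPM per kilobase of the longest coding transcript. In NaCl tumors this level was 43.6 for Serping1, 30.4 for C1ra and 27.7 for C1s1, followed by 16.9 for C3ar1, 15.1 for Cfb, 12.6 for C4b, 12.2 for C3, 11.1 for C5ar1 and 0.702 for C2. In H89 tumors it was 72.5 for Serping1, 62.8 for C1s1, 53.9 for C1ra, 32.7 for Cfb, 24.8 for C4b, 21.2 for C3, 20.4 for C3ar1, 8.48 for C5ar1 and 1.78 for C2. Single tumors ranged over 21.6 to 88.9 for Serping1, 23.2 to 67.6 for C1ra and 18.9 to 87.2 for C1s1, so the order of these 3 was not resolved, and neither was that of C4b at 10.2 to 38.7 and C3 at 5.28 to 32.5. C2, at 0.61 to 2.29, lay below every other member in all tumors. The C1q chains were far more abundant per length, at 373, 331 and 299 in NaCl tumors for C1qa, C1qb and C1qc.

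Several of these genes share sequence with a neighbour, which limits how estimated counts can be assigned. Of the stretches of 31 bases in the longest transcript, C1ra shares 56.9% with its copy C1rb, C1s1 shares 36.5% with C1s2, C4b shares 48.8% with C4a, and C2 and Cfb share 59.7% and 81.5% with Gm20547, an annotated gene whose exons overlap both. C4a and Gm20547 were not analysed here, and so reads of C4b, C2 and Cfb cannot be told apart from theirs. Serping1 and C3 share no such stretch with another gene, and C3ar1 and C5ar1 share 0.493% and 0.0797%. The copies were minor by estimated count: C1rb was 2.62% to 4.77% of C1ra, and C1s2 was 4.35% to 6.48% of C1s1. Summed with their copies, C1ra had a log2 ratio of means of 0.83 (exact permutation p = 0.1) and C1s1 of 1.20 (exact permutation p = 0.2). C2 summed with Cfb had 1.13 (exact permutation p = 0.1). Each sum had to follow its abundant gene, C1ra, C1s1 or Cfb, which made up nearly all of it. C2, at 3.06% to 6.01% of the Cfb count, was too small a part for its sum to bear on C2.

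Among 47 other complement genes written down for the rest of the cascade, 28 could be tested. At an adjusted p under 0.05, 0 were called by edgeR, beside 0.861% higher and 0.724% lower over all tested genes, and 5 were called higher by DESeq2, beside 4.75%. At an unadjusted p under 0.05 by edgeR, 8 of the 28 were higher, beside 13.1% of all tested genes, and 0 lower, beside 11.9%. The 3 with the smallest p were all higher: C1s2, the copy of C1s1, at 3.79 and 10.2 CPM (log2 fold change 1.43, SE 0.34, adjusted p 0.0722), Cd46, a membrane cofactor that limits C3b, at 1.14 and 2.36 CPM (1.05, SE 0.26, adjusted p 0.0788), and Itgb2, the beta chain of complement receptors 3 and 4, at 46.9 and 74.3 CPM (0.66, SE 0.19, adjusted p 0.1). The smallest p values on the lower side did not reach 0.05: Fcna, a ficolin of macrophages, had a log2 fold change of -0.62 (SE 0.27, unadjusted p 0.0527), C1qbp -0.18 (SE 0.09, unadjusted p 0.0821) and Vsig4, the C3b receptor of resident macrophages, -1.22 (SE 0.94, unadjusted p 0.228).

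By role, C1rb had a log2 fold change of 1.02 and Masp2, the lectin pathway protease, of 0.73. Cfd, factor D of the alternative pathway, had a log2 fold change of 3.90 (SE 1.59) that rested on H89 tumor 1, at 7.46 CPM against 0 to 0.448 CPM in the other 5 tumors. The skeletal muscle markers summed to 18.4 CPM in that tumor and to 0.951 to 2.34 CPM in the others, and the 5 adipocyte markers to 25.9 CPM, within the 11.2 to 35 CPM of the others, most of it Fabp4. Without Fabp4, Adipoq was 1.5 CPM in that tumor and at most 0.0913 CPM elsewhere, Cidec 0.642 and at most 0.187 CPM, Plin1 0.321 and at most 0.224 CPM, and Lep 0.143 CPM and at 0 elsewhere. Their part in the Cfd value was not tested. Cfp, or properdin, the stabilizer of the alternative convertase, was at 90.8 and 105 CPM with a log2 fold change of 0.21 (unadjusted p 0.0565).

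Terminal pathway transcripts were scarce. C6 was at 1.18 and 3.79 CPM (log2 fold change 1.69, SE 0.52, unadjusted p 0.0121), C8g was at 2.63 and 3.06 CPM, and Hc (the C5 gene), C7, C8a, C8b and C9 had means below the filter of 0.5 CPM. Hc averaged 0.232 CPM in the NaCl and 0.396 CPM in the H89 group, so the receptor C5ar1 was measured in tissue with little transcript of its ligand's precursor. Mbl1, Mbl2, Fcnb, C8b, C4bp and Cd55b were at 0 in all 6 tumors. Other regulators differed little: Clu had a log2 fold change of 0.18 (unadjusted p 0.332), Cr1l, the main C3b regulator on mouse cells, of -0.04 (0.753) and Cd59b of -0.10 (0.539). C5ar2, the other C5a receptor, was at 2.48 and 3.15 CPM with a log2 fold change of 0.33 (SE 0.21, unadjusted p 0.157), where C5ar1 had -0.39, and the difference between these 2 genes was not tested.

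**Figure D3:**
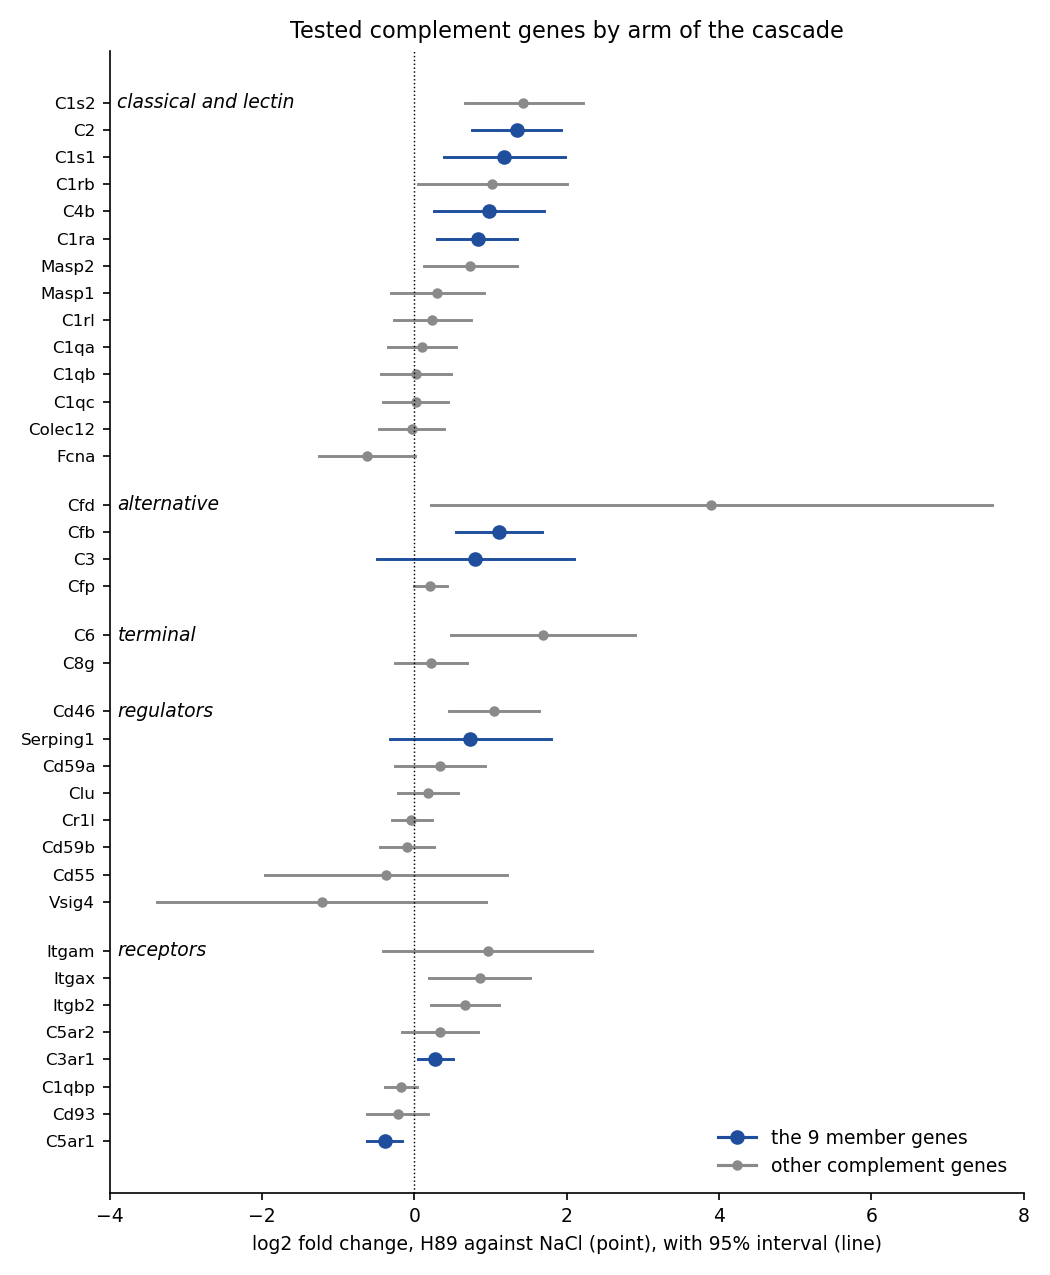
Log2 fold change of H89 against NaCl (horizontal axis, edgeR) with its 95% interval for the 9 member genes in blue and 27 of the other tested complement genes in grey, grouped by arm of the cascade. C2, C1s1, C4b and C1ra lie right of 0 at 0.83 to 1.34 while the C1q chains lie at 0.02 to 0.10, and C5ar1 is at the bottom with -0.39.

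Complement transcripts come from several cell types, and markers of these were read in the same tumors. In whole tumors, a change in the number of cells of a type and a change in RNA per cell cannot be told apart. The 10 macrophage markers summed to 1520 to 2220 CPM in NaCl and 1600 to 2140 CPM in H89 tumors, with none at 0. By edgeR, 1 of 10 was higher at an unadjusted p under 0.05 (Fcgr1, 0.57), beside 13.1% of all tested genes. The macrophage sum overlapped between groups, as did the C1q chains, C1s1, C3 and Serping1. The other members did not overlap, as was so for 15.2% of tested genes on the higher and 15.5% on the lower side. Most of the macrophage sum was Lyz2, at a mean of 1150 CPM in NaCl and 1040 CPM in H89 tumors. The part of macrophages in the complement levels was not tested. The 8 fibroblast markers summed to 2490 to 2720 CPM in NaCl and 2790 to 3580 CPM in H89 tumors. At an unadjusted p under 0.05, 3 of 8 were higher, beside the same 13.1%. Their log2 fold changes were 0.32 for Col1a2, 0.49 for Col3a1 and 0.34 for Dcn. H89 tumor 3, the highest for C1ra, C1s1 and C4b, had the lowest fibroblast sum of the H89 tumors, and most of this sum is collagen. Among the H89 tumors, Col1a1, Col1a2, Col3a1 and Dpt were lowest in tumor 3. Dcn and Pdgfra were highest there, and Lum and Pi16 lay between.

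T and NK cell markers summed to 46.5, 20.9 and 11.3 CPM in the NaCl tumors and 42.6, 26.5 and 81.8 CPM in the H89 tumors. By edgeR, 3 of 7 tested were higher at an unadjusted p under 0.05, beside 13.1% of all tested genes. Trac was not analysed here, and no measured gene was at 0. The order of this T and NK cell sum is nearly that of C1s1 and C3, and less closely that of C1ra and Serping1. In each of these, NaCl tumor 1 was the highest NaCl tumor and NaCl tumor 3 the lowest of all tumors. NaCl tumor 1 stood above H89 tumor 1 in the sum through Prf1 alone (26.2 and 9.63 CPM). Cd3e, Cd3d, Cd4, Cd8a, Ncr1 and Klrb1c were all lower in NaCl tumor 1 than in H89 tumor 1. The 8 dendritic cell markers summed to 14.6 to 19.6 CPM in NaCl and 22.4 to 29.5 CPM in H89 tumors, without overlap. At an unadjusted p under 0.05, 5 of 6 tested were higher, beside the same 13.1%. Xcr1, Clec9a and Batf3 among them had group means of 0.328 to 1.36 CPM, near the filter of 0.5 CPM. The 6 mast cell markers summed to 216 CPM in NaCl tumor 1 and 78.8 to 132 CPM in the other tumors, and NaCl tumor 1 was also the NaCl tumor with high C3 and Serping1. The part of these cells in the complement levels was not tested.

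Of other possible sources, the 7 endothelial markers summed to 96.1 to 160 CPM in NaCl and 82.4 to 124 CPM in H89 tumors. The 6 pericyte and smooth muscle markers summed to 123 to 150 and 129 to 157 CPM, and both sums overlapped. At an unadjusted p under 0.05 by edgeR, 0 of 7 and 1 of 6 were higher (Pdgfrb, 0.24), beside 13.1% of all tested genes, and 0 lower, beside 11.9%. The part of these cells in the complement levels was not tested. Defining hepatocyte markers were near 0. Of the hepatocyte genes, Apoc3, Ttr and Fga were at 0 in all tumors, Alb reached 0.0357 CPM, and the list of 8 summed to 1.26 to 2.77 CPM. Of the neutrophil genes, Ly6g was at 0, and the list of 10 summed to 16.4 to 20.7 CPM in NaCl and 20.5 to 34.9 CPM in H89 tumors, where Csf3r was higher (log2 fold change 0.90, unadjusted p 0.00238). S100a8 and S100a9 had log2 fold changes of -0.85 and -0.70 (unadjusted p 0.205 and 0.474), Retnlg was at 0.0746 to 0.146 CPM in NaCl and 0 to 0.0608 CPM in H89 tumors, and the median of the 4 tested neutrophil genes was -0.20. C5ar1 is also a neutrophil receptor, and the part of these cells in its lower level was not tested. The tumors carried little of a colon epithelial programme: Epcam and Cdx2 reached 1.18 and 0.304 CPM, whereas Krt20 was at 65.8 to 103 CPM. The sum of the 9 colon carcinoma markers was lower in H89 (77.2 to 93 CPM) than in NaCl tumors (110 to 124 CPM), most of it Krt20. Krt20 and Krt18 had log2 fold changes of -0.47 and -1.04. Krt8, Krt19 and Cdh1, at low levels, had 1.03, 2.56 and 0.05, and the median of the 5 tested markers was 0.05.

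Genes of the interferon gamma pathway were read beside the members, since several members are known to respond to interferon gamma. The list holds response genes and also Ifng, its receptor genes Ifngr1 and Ifngr2, and the kinase genes Jak1 and Jak2. These receptor and kinase genes had log2 fold changes of -0.08 to 0.17. Of 19 genes of this pathway, 8 were higher and 0 lower at an unadjusted p under 0.05, beside 13.1% and 11.9% of all tested genes, 0 passed the adjusted threshold by edgeR, and the median log2 fold change was 0.86. Their sum was 1730, 1470 and 810 CPM in the NaCl tumors and 2590, 1530 and 2950 CPM in the H89 tumors. NaCl tumor 3 was lowest and H89 tumors 1 and 3 highest, as for C1ra, C1s1 and Cfb. Irf1, a transcription factor induced by interferon gamma, was at 117, 107 and 56.9 CPM in NaCl and 185, 131 and 215 CPM in H89 tumors (log2 fold change 0.92, SE 0.28, unadjusted p 0.0111). Ifng itself was at 0.0731 to 1.04 CPM in NaCl and 0.578 to 2.31 CPM in H89 tumors, with overlap. Of 9 other inducers of complement and acute phase genes, 8 were tested, 0 were higher and 3 lower at an unadjusted p under 0.05, beside the same 13.1% and 11.9%: Osm at a log2 fold change of -0.67, Rela at -0.33 and Cebpb at -0.48. Tnf had a log2 fold change of 0.40 (unadjusted p 0.0719 by edgeR), Stat3 0.20 (0.24), Nfkb1 -0.09 (0.369), Cebpd -0.16 (0.55) and Il1b -0.46 (0.31). Il6 stayed below the filter, at 0.18 to 0.805 CPM.

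**Figure D4:**
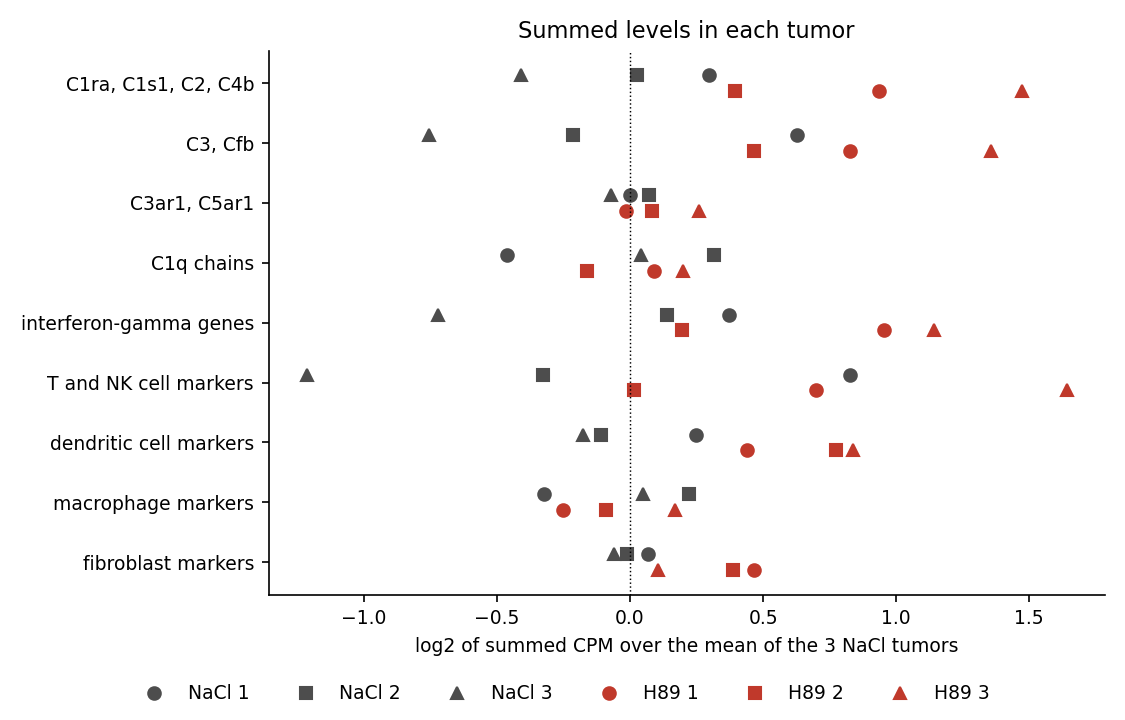
Summed CPM of gene groups in each tumor, as the log2 ratio to the mean of the 3 NaCl tumors (horizontal axis), with grey NaCl and red H89 symbols. The classical complement genes, the C3 and Cfb sum and the interferon-gamma genes have NaCl tumor 3 lowest and H89 tumor 3 highest. So do the receptor, T and NK cell and dendritic cell sums. The classical, dendritic cell and fibroblast sums do not overlap between the groups, and the other sums do.

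For each member, the genes outside the complement lists with the most similar profile over the 6 tumors were found among 10464 genes with a mean of at least 5 CPM, by the root mean square difference of centred log2 values. They were Gm7609 and Serpinb9 for C1ra (0.07 each), Lag3 and Ctsw for C1s1 (0.13 and 0.17), Fcho1 and Samd9l for C2 (0.17 and 0.18), and Itgal and Lair1 for C4b (0.10 and 0.14). For Cfb they were Ifi44l and Mx1 (0.11 and 0.13), for Serping1 Acap1 and Apol10b (0.22 and 0.25), and for C3 Slc7a2 and Il2rb (0.35 and 0.36), so that C3 had the least close neighbours of the 9 genes. C3ar1 was closest to Asph and Arl4a, and C5ar1 to Etv4 and Rin1 (0.03 each), as genes that vary little lie close to many others. These are descriptions over 6 tumors that share their libraries.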

How the data were processed

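RNA of 3 NaCl and 3 H89 tumors was sequenced on the BGISEQ-500 platform. The submitters' processing notes name kallisto, DESeq2 and GRCm38; the kallisto version, annotation and filters are not given in the sources used here. The authors deposited 1 table of estimated counts per gene, which is called TPM, but its values sum to 27067349 to 31958793 per tumor and 58.6% to 61.4% of those above 0 lie within 0.01 of a whole number. It was therefore treated as a table of estimated counts, not scaled by library or length, and no depth beyond these totals is known.

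Counts were rounded. Genes with a mean of at least 0.5 CPM were fitted with edgeR 4.0.16 (R 4.3.3; TMM, glmQLFit, glmQLFTest, treatment as the only term) with Benjamini-Hochberg adjustment over the 13118 genes at a threshold of 0.05. Standard errors were obtained from the fold change and the quasi-likelihood F statistic, as |log2 fold change| over the root of F. Exact two-sided permutation tests took the 6 tumors over all splits into 3 and 3. Alternatives were other filters, normalizations and pseudocounts, DESeq2 1.42.0, limma 3.58.1, a block for the replicate number, and leaving out single tumors. The fit was tested on simulated data with 200 changed genes. Lengths, positions and shared sequence came from GENCODE M21, promoters from RefSeq (GRCm38.p6), by symbol. The ratios within tumors were chosen after the values were seen. Groups came from the sample titles.

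The named genes are the 9 members, listed complement genes with full values for the 3 of smallest p in each direction, the 2 nearest profiles of each member, and marker and pathway genes beside results. Members, lists and tests were chosen with earlier results of these data known. C4a was not analysed here, so the planned sum of C4b and C4a was not made. The value of 1 listed complement gene is not reported here.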

Additional observations from a re-analysis of the deposited data

How the results depend on the processing

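All 9 member log2 fold changes kept their sign under every alternative run. The count of members called higher at an adjusted p under 0.05 was 1, and became 2 with no filter, 3 by DESeq2, and 0 with a minimum of 5 CPM (where C2 was not tested), quantile normalization, voom, the replicate block and every left-out tumor (0 to 0). DESeq2 called 1 member lower, where edgeR called 0. For the other complement genes, DESeq2 called 5 higher against 0. At an unadjusted p under 0.05, their 8 higher calls became 4 with a minimum of 5 CPM and 4 to 9 with a tumor left out (4 without NaCl tumor 3, 5 without NaCl tumor 2). Their 0 lower calls became 1 with no filter, quantile normalization, DESeq2 and the replicate block, and 0 to 2 with a tumor left out. The adjusted p of C2 was 0.089 by quantile normalization, 0.0552 by voom and 0.064 with the replicate block, within 0.000541 to 0.152 over its alternatives. The 3 numbers pair the samples only by name: same-numbered tumors deviated together with correlations of 0.164, 0.062 and -0.025. Over all genes, the 113 higher and 95 lower calls became 0 and 0 with the replicate block, 0 to 11 higher with a tumor left out, 55 and 25 by quantile normalization and 634 and 758 by DESeq2. The cause of these changes was not tested. A sum of C4b and C4a was not run. With 3 tumors a group, no exact test of 1 gene can go below 0.1, and C2, at 43 to 169 counts, is the member most limited by depth.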
